A study of Rattus norvegicus with 50 samples.

Results

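ENSRNOG00000006873 and ENSRNOG00000011269 are 2 of the 32545 rat Ensembl gene IDs measured in kidney cortex and kidney medulla. They were chosen for their high values in rats given the larger dose of MK-8722, the first in both tissues and the second in cortex. The choosing values were the differences between MK-8722 10 mpk and obese vehicle, in log2(FPKM + 0.5). FPKM counts fragments per kilobase of transcript and scales them to the mapped fragments of the library. In cortex, ENSRNOG00000011269 ranked 1 and ENSRNOG00000006873 ranked 2 of 13579 tested IDs, with differences of 2.83 and 2.71, and the next ID stood at 2.21. In medulla, ENSRNOG00000006873 ranked 1 of 14195 tested IDs, with a difference of 1.95, and the next ID stood at 1.73. Because these values selected the IDs, every difference that holds the MK-8722 10 mpk or obese vehicle libraries of a tissue used in the choice is given below as a description, without a test. A choice on that contrast favours low obese vehicle values as well as high 10 mpk values. The deposited table pairs neither ID with a gene name, so no function is assigned to them.

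The series compared MK-8722, a pan-activator of AMP-activated protein kinase (AMPK), with enalapril in the ZSF1 rat. There were 10 groups of 5 total-RNA libraries, formed by 2 tissues and 5 treatments. The lean group was lean ZSF1 rats on vehicle. The obese groups were obese ZSF1 rats on vehicle, on enalapril at 10 mpk, on MK-8722 at 1 mpk or on MK-8722 at 10 mpk, where mpk is the dose unit as labelled. All groups share the ZSF1 strain and a treatment time of 28 weeks. The labels also give an age of 20 weeks, which is shorter than the treatment time and was not used. Lean rats received no drug, so no group shows either drug in the absence of obesity. The labels do not say which libraries came from the same animal, and the p-values therefore measure the spread between libraries.

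AMPK is a kinase complex that senses low cellular energy and shifts cells from energy-consuming synthesis towards fuel oxidation. Direct activators such as MK-8722 act on the complex itself, whereas enalapril inhibits angiotensin-converting enzyme and lowers angiotensin II. The obese ZSF1 rat carries defective leptin receptor alleles and develops obesity, diabetes and kidney disease, on a hypertensive background that its lean relative shares. Renal cortex holds the glomeruli and most proximal tubules, and medulla holds loops of Henle and collecting ducts. In bulk tissue, a change in the share of a cell type and a change in RNA per cell cannot be told apart.

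The 2 IDs differed widely in abundance. ENSRNOG00000006873 had a higher mean FPKM than 97.4% of tested IDs in cortex and 97.3% in medulla, and reached the filter of 1 FPKM in all 50 libraries. ENSRNOG00000011269 exceeded only 9.09% of tested IDs in cortex. It passed the cortex filter solely through the 5 libraries of MK-8722 10 mpk, and no medulla library reached 1 FPKM. It was listed at 0 in 1 cortex library and 11 medulla libraries. Relative sequencing depth, read from the spacing of low values, ran from 0.599 to 1.53 across the 50 libraries. It averaged 1.34 ± 0.194 (SD, n = 5) in cortex MK-8722 10 mpk and 1.02 ± 0.212 in cortex obese vehicle. In medulla the same groups averaged 0.870 ± 0.129 and 0.728 ± 0.0816.

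In cortex, ENSRNOG00000006873 had lower values in obese vehicle than in lean rats, and its highest levels of the series were found at MK-8722 10 mpk. Lean libraries held 117, 147, 135, 145 and 136 FPKM (136 ± 11.9, mean ± SD, n = 5). Obese vehicle libraries held 37.3, 59.4, 50.7, 68.4 and 46.9 FPKM (52.5 ± 11.9). No obese vehicle library reached any lean one. Relative to the mean the obese vehicle libraries were more spread, with a coefficient of variation of 22.6% against 8.79% in lean. The obese vehicle mean was 2.59 times lower than the lean mean. The limma difference, obese vehicle minus lean, was -1.39 ± 0.18 (SE) in log2(FPKM + 0.5), given without a test. In this comparison 61.1% of tested IDs passed the threshold of an adjusted p under 0.05. Downwards, 6.83% of tested IDs passed and 4.4% lay below lean without overlap. The median difference of all tested IDs was 0.30. After rescaling each library by its median ratio the difference was -1.73.

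The cortex libraries of MK-8722 10 mpk held 312, 392, 361, 231 and 440.0 FPKM (347 ± 80.0, n = 5). The lowest of them was above every other cortex library of the series. The mean was 6.61 times the obese vehicle mean, 7.35 times the enalapril mean and 2.55 times the lean mean. The log2 differences were 2.71 ± 0.18 (SE) against obese vehicle, 2.86 ± 0.18 against enalapril and 1.32 ± 0.18 against lean. As background, 26.6%, 9.63% and 38.3% of tested IDs passed the threshold in these comparisons in either direction. Upwards, 288, 520 and 3786 of 13579 passed. The shares without overlap, in either direction, were 7.54%, 8.35% and 26.0%. The group median of all tested IDs against obese vehicle was -0.19, and rescaling gave 2.91 for this ID. The level was thus above lean as well as above obese vehicle, in all 5 libraries.

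At MK-8722 1 mpk, cortex libraries of ENSRNOG00000006873 held 61.4, 109, 78.5, 85.3 and 67.4 FPKM (80.3 ± 18.6, n = 5). Of these, 3 lay above every obese vehicle library and the other 2 lay within their range. The mean was 1.53 times that of obese vehicle. The difference of 0.61 ± 0.18 (SE; 95% confidence interval 0.24 to 0.98) is a description. No ID passed the adjusted threshold here (0.0% of 13579), while 583 had an unadjusted p under 0.05. The 10 mpk mean was 4.32 times the 1 mpk mean, a difference of 2.10 ± 0.18, without overlap. As background to that dose comparison, 30.2% of tested IDs passed the threshold and 10.5% showed no overlap, both in either direction. Upwards, 304 of 13579 passed.

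**Figure D1:**
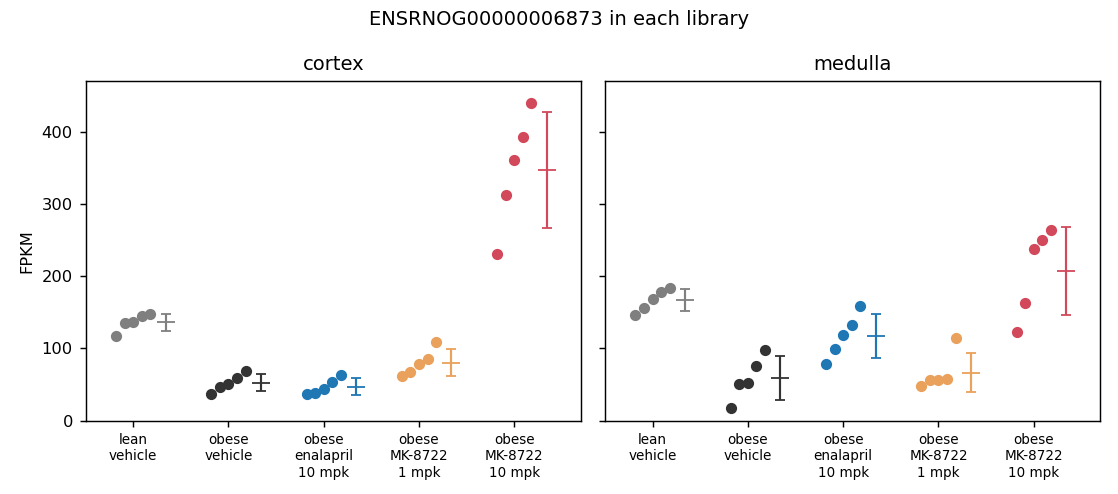
FPKM of ENSRNOG00000006873 (vertical axis) in each library of the 5 treatments, for cortex and medulla; points are libraries, and the dash with its bar is the mean ± SD of 5. Cortex MK-8722 10 mpk libraries lie between 231 and 440.0 FPKM, above all other cortex libraries, whereas in medulla the 10 mpk range of 123 to 264 overlaps lean and enalapril.

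Under enalapril, cortex libraries held 36.5, 63.5, 38.1, 44.5 and 53.7 FPKM (47.2 ± 11.3, n = 5), which overlapped obese vehicle. The difference was -0.15 ± 0.18 (SE; 95% confidence interval -0.53 to 0.22), in a comparison where 14.4% of tested IDs passed. Its sign depended on scaling, since rescaling gave 0.04. MK-8722 at 1 mpk exceeded enalapril in cortex by 0.76 ± 0.18 (limma adjusted p 0.00482), where 32.3% of IDs passed and the median of all tested IDs was 0.20. After rescaling that difference was 0.55 with an adjusted p of 0.0632, so the call rested on the scaling.

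The order of the cortex means was therefore MK-8722 10 mpk, lean vehicle, MK-8722 1 mpk, obese vehicle and enalapril. Lean and MK-8722 1 mpk did not overlap and differed by 0.78 ± 0.18 (SE; limma adjusted p 0.000681), where 64.7% of IDs passed and 6.29% lay below lean without overlap. Enalapril also stayed below lean, by a difference of -1.54 ± 0.18 (adjusted p 1.74e-06), where 25.1% of IDs passed and 4.65% lay below lean without overlap. The ranges of MK-8722 1 mpk and obese vehicle overlapped, as did those of obese vehicle and enalapril.

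In medulla, ENSRNOG00000006873 again had lower values in obese vehicle than in lean rats, and the enalapril mean lay between them. Lean libraries held 178, 146, 184, 156 and 169 FPKM (167 ± 15.4, n = 5). Obese vehicle libraries held 98.4, 50.9, 75.5, 52.1 and 17.6 FPKM (58.9 ± 30.2). The groups did not overlap, and replicate 7 of obese vehicle, at 17.6 FPKM, was the lowest of all 50 libraries. The obese vehicle mean was 2.83 times lower than the lean mean. The difference was -1.69 ± 0.33 (SE), again without a test since these obese vehicle libraries took part in the choice, against a median of 0.37 over all tested IDs. In this comparison 67.7% of tested IDs passed. Downwards, 10.9% passed and 8.42% lay below lean without overlap.

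Enalapril libraries of the medulla held 159, 77.9, 118, 132 and 99.1 FPKM (117 ± 30.9, n = 5). Of these, 4 lay above every obese vehicle library, and replicate 3 overlapped them. The mean was 1.99 times that of obese vehicle, and the difference was 1.15 ± 0.33 (SE; 95% confidence interval 0.46 to 1.83), given without a test for the same reason. In this comparison 10.6% of tested IDs passed, and 1.57% passed upwards. Without obese vehicle replicate 7 the difference was 0.77, and rescaling of all libraries gave 1.28.

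MK-8722 1 mpk libraries of the medulla held 56.7, 114, 57.2, 56.5 and 47.6 FPKM (66.4 ± 26.9, n = 5). Replicate 2 stood apart from the other 4, which lay within the obese vehicle range. The difference from obese vehicle was 0.30 ± 0.33 (SE; 95% confidence interval -0.38 to 0.98). Without obese vehicle replicate 7 it turned to -0.08. No tested ID passed in this comparison (0.0% of 14195), and 577 had an unadjusted p under 0.05.

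At MK-8722 10 mpk the medulla libraries held 237, 163, 249, 264 and 123 FPKM (207 ± 61.2, n = 5). All 5 were above every obese vehicle library, and 3 were above every lean library. The mean was 3.52 times that of obese vehicle, 3.12 times that of MK-8722 1 mpk, 1.77 times that of enalapril and 1.25 times that of lean. The log2 differences were 1.95, 1.65, 0.81 and 0.26, each ± 0.33 (SE). As background, 18.1%, 5.92%, 2.73% and 47.7% of tested IDs passed in these comparisons in either direction. Upwards, 227, 145, 116 and 5189 of 14195 passed. The groups did not overlap against obese vehicle, as for 8.97% of IDs, or against MK-8722 1 mpk, as for 4.76%. They overlapped against enalapril and lean.

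The order of the medulla means was MK-8722 10 mpk, lean vehicle, enalapril, MK-8722 1 mpk and obese vehicle. Of the neighbours that could be tested, neither pair differed past the threshold. Lean exceeded enalapril by 0.54 ± 0.33 (SE; limma adjusted p 0.181; 46.9% of IDs passed), and a fit of these 2 groups alone gave an adjusted p of 0.014. Enalapril exceeded MK-8722 1 mpk by 0.85 ± 0.33 (adjusted p 0.105; 7.12% of IDs passed), and by 1.06 (adjusted p 0.0474) without replicate 2 of MK-8722 1 mpk. Lean did exceed MK-8722 1 mpk, by 1.39 ± 0.33 (adjusted p 0.000892; 63.9% of IDs passed). Those groups did not overlap, as for 9.19% of IDs in that direction.

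Between tissues, the level of ENSRNOG00000006873 differed past the threshold under enalapril, a group that took no part in the choice. There every cortex library was below every medulla library, and the medulla mean was 2.48 times the cortex mean. The difference, cortex minus medulla, was -1.29 ± 0.27 (SE; limma adjusted p 0.000144). In enalapril-treated rats 51.6% of tested IDs passed between tissues, and 35.1% showed no overlap. Of 14586 tested IDs, 6070 passed as lower in cortex, and the median difference was -0.24. After rescaling the difference of ENSRNOG00000006873 was -1.04. The tissue differences were -0.29 in lean (adjusted p 0.424; 39.9% of IDs passed) and 0.32 at MK-8722 1 mpk (adjusted p 0.391; 32.7% passed). In obese vehicle, where 46.6% of IDs passed, the difference was 0.01, without a test, and it was -0.37 when replicate 7 of the medulla was left out. At MK-8722 10 mpk the cortex mean was 1.67 times the medulla mean, a log2 difference of 0.77 ± 0.27, and 4 of 5 cortex libraries lay above all medulla libraries. There, 47.4% of tested IDs passed.

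The differences from obese vehicle can be set side by side between tissues, as cortex minus medulla, and are given without a test since they hold libraries used in the choice. For enalapril this value was -1.30 ± 0.39 (SE), and 0.00686% of tested IDs passed. For obese vehicle against lean it was 0.30 ± 0.39, and 4.86% of IDs passed. For MK-8722 it was 0.31 ± 0.39 at 1 mpk, where 0.0% of IDs passed by limma and 400 had an unadjusted p under 0.05, and 0.76 ± 0.39 at 10 mpk, where 0.226% passed.

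**Figure D2:**
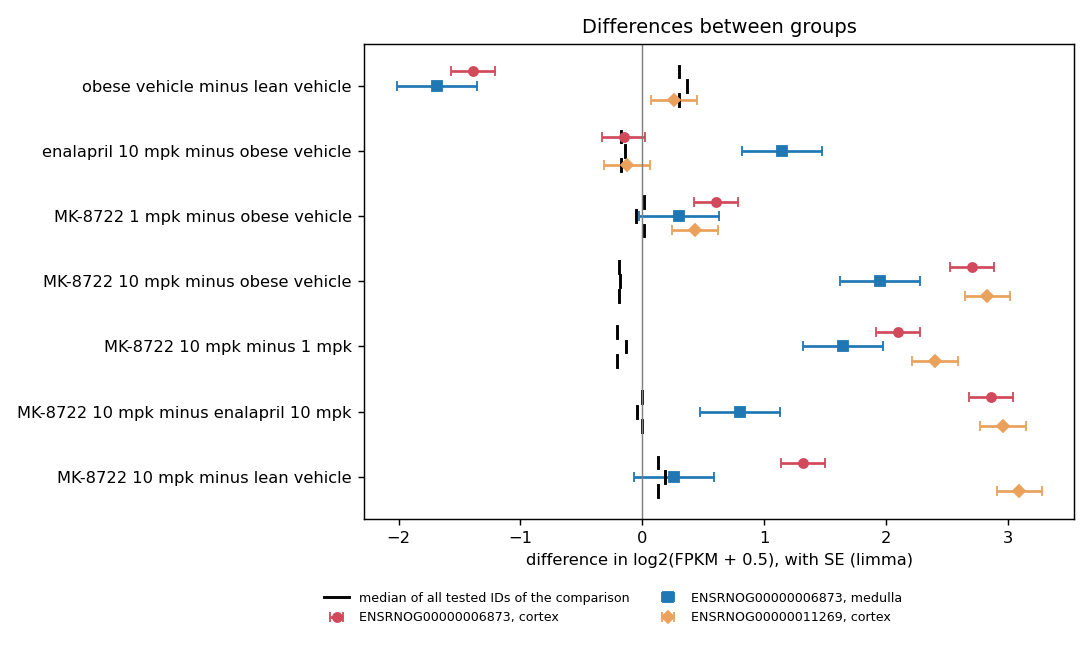
Differences in log2(FPKM + 0.5) (horizontal axis) for each ID and comparison, with the SE of the limma fit as bars; black ticks mark the median of all tested IDs. The MK-8722 10 mpk differences reach 3.10 and lie to the right of medians between -0.21 and 0.19, though ENSRNOG00000006873 in medulla against lean, at 0.26, lies close to its median of 0.19; for obese vehicle against lean that ID lies to the left of the median in both tissues.

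ENSRNOG00000011269 was near the detection limit in every cortex group except MK-8722 10 mpk. Its lean libraries held 0.231, 0.179, 0.350, 0.0577 and 0 FPKM (0.164 ± 0.139, mean ± SD, n = 5). Obese vehicle libraries held 0.472, 0.306, 0.292, 0.246 and 0.129 FPKM (0.289 ± 0.124). Enalapril libraries held 0.222, 0.331, 0.133, 0.324 and 0.102 FPKM (0.223 ± 0.106). These 3 groups overlapped. The difference of obese vehicle from lean was 0.26 ± 0.19 (SE), and that of enalapril from obese vehicle was -0.13 ± 0.19 (95% confidence interval -0.51 to 0.26). Neither was tested, since the obese vehicle libraries took part in the choice. With a pseudocount of 0.1 the difference from lean was 0.69.

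MK-8722 1 mpk libraries held 0.355, 0.890, 0.252, 0.536 and 0.911 FPKM (0.589 ± 0.302, n = 5). Of these, 3 exceeded every obese vehicle library, and the mean was 2.04 times that of obese vehicle. The difference of 0.43 ± 0.19 (SE; 95% confidence interval 0.05 to 0.82) is a description, and was 0.76 with a pseudocount of 0.1. Against lean, the 1 mpk group was higher by 0.69 ± 0.19 (limma adjusted p 0.00249), where 64.7% of tested IDs passed and the median over them was 0.32. Against enalapril it was higher by 0.56 ± 0.19 (limma adjusted p 0.0271), where 32.3% of IDs passed and the median was 0.20. That call was lost after rescaling (0.47, adjusted p 0.0839), in a fit of the 2 groups alone (adjusted p 0.0749), and without replicate 4 or 7 of enalapril or replicate 2 or 7 of MK-8722 1 mpk, with values down to 0.45. The ID entered these fits only through the 10 mpk libraries, the group it was chosen for. Those libraries are in neither comparison but share in the estimate of the spread, so nothing further is read from these calls. All of these values lie below 1 FPKM, where the added 0.5 understates differences.

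At MK-8722 10 mpk the cortex libraries held 4.40, 5.08, 5.68, 4.98 and 5.31 FPKM (5.09 ± 0.471, n = 5). The lowest of them was above every other library of either tissue, and the 5 values lay close together. The mean was 17.6 times that of obese vehicle, 22.9 times that of enalapril, 31.1 times that of lean and 8.65 times that of MK-8722 1 mpk. The log2(FPKM + 0.5) differences were 2.83, 2.96, 3.10 and 2.40, each ± 0.19 (SE). As background, 26.6%, 9.63%, 38.3% and 30.2% of tested IDs passed the threshold in these comparisons in either direction. Upwards, 288, 520, 3786 and 304 of 13579 passed. The shares without overlap, in either direction, were 7.54%, 8.35%, 26.0% and 10.5%. With a pseudocount of 0.1 in place of 0.5, the difference from obese vehicle was 3.79. The order of the cortex means was MK-8722 10 mpk, MK-8722 1 mpk, obese vehicle, enalapril and lean, and the ranges of neighbouring groups below 10 mpk overlapped.

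The read numbers behind these levels were small outside the 10 mpk group. The value of 1 read for this ID was taken from its lowest nonzero values and each library's relative depth, and lay between 0.0540 and 0.138 FPKM. On that scale, 29 of 38 nonzero values fell within 0.1 reads of a whole number. The 9 lowest, which set the scale, did so by construction. Others lay between whole numbers, such as 1.51 reads in a cortex obese vehicle library. Cortex MK-8722 10 mpk libraries corresponded to 55.1 to 98.8 reads, MK-8722 1 mpk to 3 to 14 reads and obese vehicle to 1.51 to 5.00 reads. These are estimates, since counts were not used here.

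**Figure D3:**
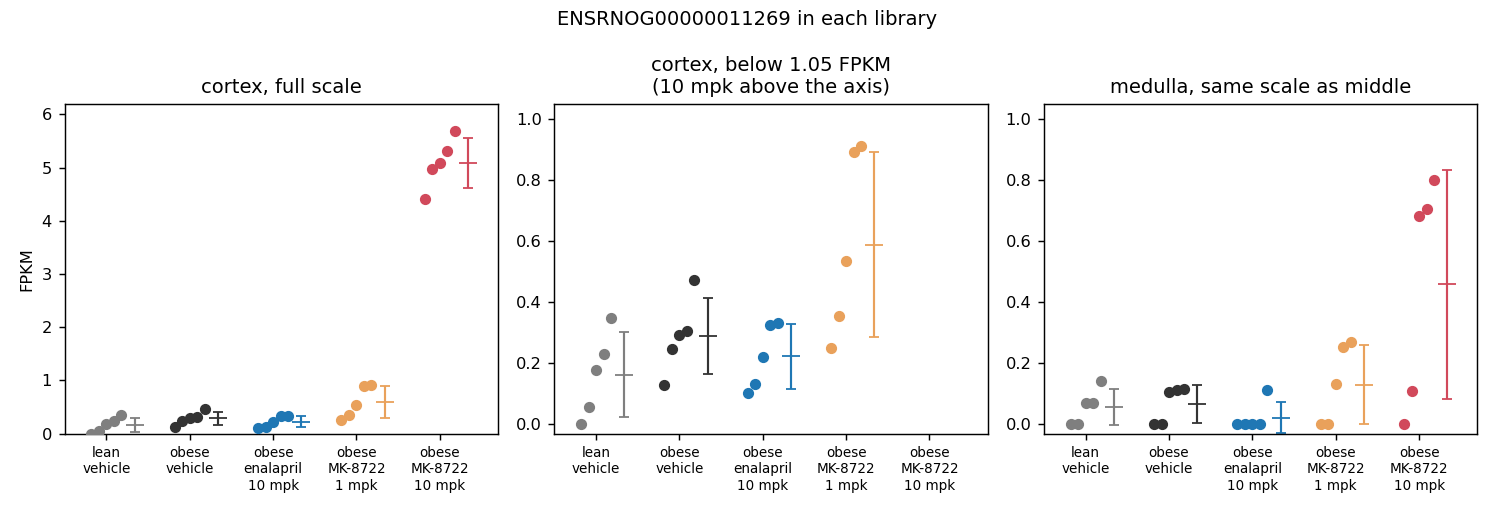
FPKM of ENSRNOG00000011269 (vertical axis) by library and treatment, in cortex on the full scale, in cortex on an enlarged scale for low values, and in medulla on that same enlarged scale; points are libraries, and the dash with its bar is the mean ± SD of 5. Cortex MK-8722 10 mpk libraries lie between 4.40 and 5.68 FPKM, and no other library of either tissue exceeds 0.911 FPKM.

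In medulla, which took no part in choosing ENSRNOG00000011269, 3 libraries of MK-8722 10 mpk were higher than all other medulla libraries and the other 2 were not. The 10 mpk libraries held 0.706, 0, 0.109, 0.801 and 0.681 FPKM (0.459 ± 0.374, n = 5), or an estimated 9.06, 0, 1, 9.06 and 7 reads. Obese vehicle libraries held 0.115, 0.106, 0, 0.113 and 0 FPKM (0.0668 ± 0.0611), none above an estimated 1 read. The difference of the means was 0.392 FPKM. An exact two-sided permutation test over the 10 libraries gave p = 0.119, and 0.476 after adjustment over 4 medulla comparisons, where 0.00794 is the smallest p that 5 against 5 libraries allow. A rise was thus not called across the medulla group, which does not show its absence, since the mean was 6.87 times that of obese vehicle. Of the 5 libraries, 2 stayed within the obese vehicle range.

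The remaining medulla groups were lower still. MK-8722 1 mpk libraries held 0.252, 0, 0, 0.132 and 0.270 FPKM, a mean difference from obese vehicle of 0.064 FPKM (exact permutation p = 0.286, adjusted 0.54). Enalapril libraries were at 0 except replicate 2 at 0.114 FPKM, a mean difference of -0.0441 FPKM (exact permutation p = 0.405, adjusted 0.54). Lean libraries held 0, 0.0697, 0.143, 0 and 0.0707 FPKM, and obese vehicle differed from them by 0.0102 FPKM (exact permutation p = 0.714, adjusted 0.714).

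Between tissues, ENSRNOG00000011269 was higher in cortex at MK-8722 1 mpk, by 0.77 ± 0.20 (SE; limma adjusted p 0.00286), where 32.7% of tested IDs passed. It entered this fit, too, only through the cortex 10 mpk libraries, which share in the estimate of the spread. Nothing further is read from the calls between tissues for this ID. A model that also held the log2 depth of each library, tried once values were known, gave 0.50 and an adjusted p of 0.0939. Mean relative depth was 1.06 in the cortex libraries and 0.798 in the medulla libraries of that dose. The differences in lean (0.23, adjusted p 0.386) and enalapril (0.46, adjusted p 0.0556) missed the threshold. Under enalapril the difference passed with a pseudocount of 0.1 (1.40, adjusted p 0.0151), after rescaling (0.50, adjusted p 0.0466), and without cortex replicate 7 or medulla replicate 2 (up to 0.52). With log2 depth in the model it was 0.03 (adjusted p 0.958). In obese vehicle, given without a test, it was 0.47, and 1.25 with a pseudocount of 0.1. There all 5 cortex libraries were above all 5 medulla libraries, as for 26.8% of tested IDs in either direction. At MK-8722 10 mpk the cortex mean was 11.1 times the medulla mean, a log2 difference of 2.64 ± 0.20, without overlap. The no-overlap share there was 21.8% of tested IDs.

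The 2 IDs had different profiles below the 10 mpk dose. In cortex, ENSRNOG00000006873 had its lowest means in obese vehicle and enalapril, both below lean. ENSRNOG00000011269 had its lowest mean in lean, with lean, obese vehicle and enalapril overlapping. Over the 25 cortex libraries their log2(FPKM + 0.5) values had a Pearson r of 0.784. After the mean of each group was subtracted, r was 0.105. Both figures are descriptions, since both IDs were chosen on the same libraries.

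The IDs most like each one were taken by Pearson r of log2(FPKM + 0.5) over the 25 libraries of a tissue, again as a description of libraries that share groups and processing. For ENSRNOG00000006873 in cortex these were ENSRNOG00000006543 (r = 0.950) and ENSRNOG00000013532 (r = 0.943), where the median over all tested IDs was -0.268. ENSRNOG00000006543 averaged 31.9 FPKM in lean, 21.6 in obese vehicle, 20.5 on enalapril, 23.1 at MK-8722 1 mpk and 41.5 at 10 mpk. ENSRNOG00000013532 averaged 4.45, 2.60, 2.19, 3.16 and 10.4 FPKM in the same order. Both followed the same order of groups as ENSRNOG00000006873, with a smaller ratio of 10 mpk to obese vehicle. The next ID, ENSRNOG00000022483 (r = 0.940), named after its values were seen, had a larger ratio, with 0.359 FPKM in obese vehicle and 3.68 at 10 mpk.

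In medulla the IDs most like ENSRNOG00000006873 were ENSRNOG00000010633 (r = 0.945) and ENSRNOG00000007839 (r = 0.902), with a median r of -0.44 over all IDs. ENSRNOG00000010633 averaged 40.2 FPKM in lean, 22.9 in obese vehicle, 30.9 on enalapril, 24.3 at MK-8722 1 mpk and 35.6 at 10 mpk. Its lean mean exceeded its 10 mpk mean, unlike that of ENSRNOG00000006873. For ENSRNOG00000011269 in cortex they were ENSRNOG00000042912 (r = 0.897) and ENSRNOG00000058842 (r = 0.869), with a median r of -0.031. ENSRNOG00000042912 averaged 3.71, 3.69, 3.28, 3.79 and 5.97 FPKM in lean, obese vehicle, enalapril, MK-8722 1 mpk and 10 mpk. ENSRNOG00000058842 averaged 12.3, 10.9, 10.4, 12.1 and 19.8 FPKM in that order.

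**Figure D4:**
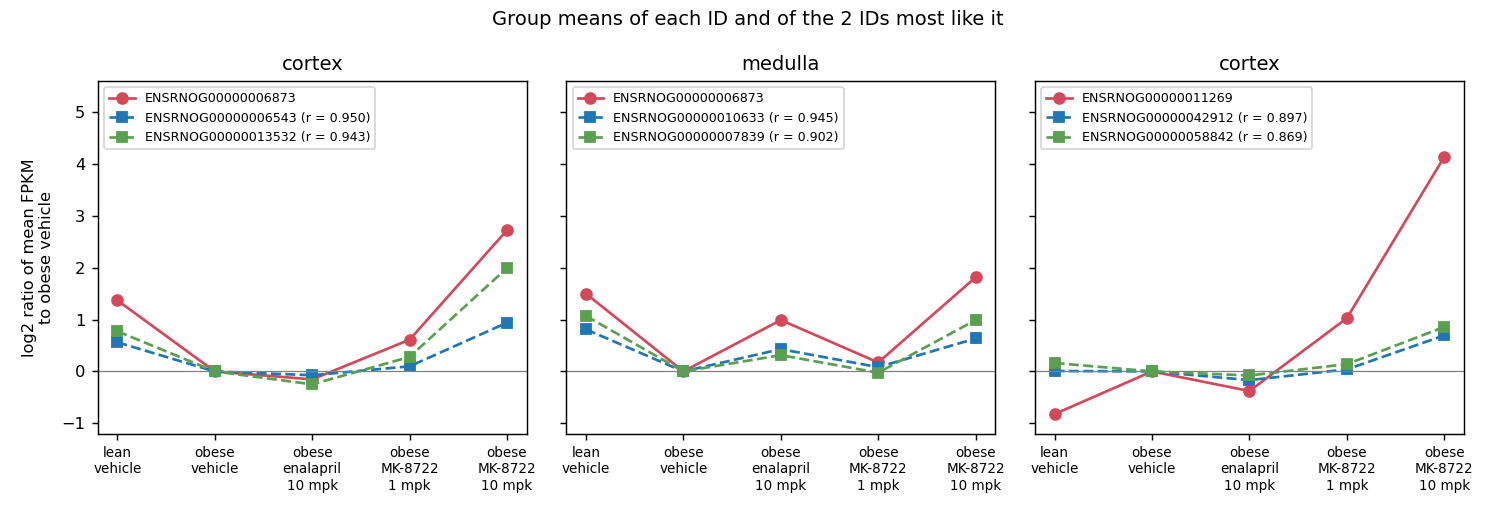
Log2 ratio of each group's mean FPKM to the obese vehicle mean (vertical axis) by treatment, for each ID and the 2 IDs most like it in each tissue. At MK-8722 10 mpk the ratios of the 2 similar IDs drawn in each panel are smaller than that of the ID they were matched to, which does not extend to IDs further down the list.

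Within groups, the closest IDs were different ones. After subtraction of each group's mean, ENSRNOG00000006873 was most like ENSRNOG00000042084 (r = 0.897) and ENSRNOG00000004280 (r = 0.877) in cortex. In medulla it was most like ENSRNOG00000010633 (r = 0.919), which also led by level, and ENSRNOG00000036984 (r = 0.898). For ENSRNOG00000011269 in cortex the highest values were lower, 0.660 for ENSRNOG00000049988 and 0.637 for ENSRNOG00000010092.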

How the data were processed

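The authors deposited FPKM values for 32545 Ensembl IDs. The unit is that of the table's own name. Per the labels' protocols, libraries were stranded total RNA with ribosomal RNA removed. Which aligner, counter and build they used is not given in the sources used here. Columns were matched to samples by the library number in each description. FPKM are not counts, so log2(FPKM + 0.5) was tested with limma 3.58.1 in R 4.3.3 (trend, robust) for IDs at 1 FPKM or more in at least 5 libraries of a fit. Fits used 25 libraries per tissue, or all 50 (14586 IDs) between tissues, and calls needed a two-sided p under 0.05 after Benjamini-Hochberg adjustment over all IDs tested. ENSRNOG00000011269 failed the filter in medulla, so exact permutation tests (scipy 1.17.1) of FPKM were used there. Absolute depth is unknown. Low values were whole multiples of 1 read, within 0.1 reads, for 94.9% of 59477 values in 5123 IDs, which gave relative depth.

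Both IDs, and the gene lists, were chosen with earlier results of these data known. Besides both IDs, the text names the 2 IDs of highest Pearson r by level and within groups; the rule took 2 rather than 5 because no symbols were at hand. None of 47357 reference genes carries an Ensembl ID (0 matched), so pathway lists and tissue markers were not run. Alternatives were a pseudocount of 0.1, no filter, median-ratio rescaling, a fit of only the groups compared, a replicate block and leaving out each library. Depth and library-number terms, interactions and comparisons among lean, enalapril and MK-8722 1 mpk were added after the data had been seen. Library numbers fell in a lower and a higher range, and every higher-range library was cortex. These were replicates 5, 6 and 7 of MK-8722 10 mpk and replicates 1 and 7 of lean. The others were replicate 5 of obese vehicle, 6 of enalapril and 7 of MK-8722 1 mpk. The range thus partly overlaps dose and tissue. The fits were tested on simulated data.

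Same-numbered libraries deviated together, by the rule that every pair exceed r = 0.1 across IDs, in 2 comparisons with 3 pairs each. The other group comparisons checked did not meet the rule, including all those with 4 or 5 pairs. In cortex MK-8722 10 mpk against obese vehicle r was 0.222 to 0.373, and for cortex against medulla at MK-8722 10 mpk it was 0.101 to 0.309. The labels state no pairing. Both comparisons are described without a test. Comparisons that hold obese vehicle libraries of a tissue used in the choice had been designed as tests. They are given without one, because these libraries are 1 side of the choosing contrast.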

Additional observations from a re-analysis of the deposited data

Results flagged for a closer look

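In 20 groups of 5 libraries, the gap between an extreme library and its nearest neighbour was compared with the group's range. Chance fails this check in about 1 of 20 groups of normally distributed values. The check singled out 2 libraries. For ENSRNOG00000006873, replicate 2 of medulla MK-8722 1 mpk held 114 FPKM, with a gap of 0.855 of the range. For ENSRNOG00000011269, replicate 2 of medulla enalapril held 0.114 FPKM, an estimated 1 read, with the other 4 libraries at 0. There the gap is the whole range by construction, so that chance rate does not apply and nothing is read from the flag.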

How the results depend on the processing

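Of 298 alternative values of 19 tested results, 279 kept their direction and side of the threshold, 8 lost the call, 6 gained it and 5 changed sign without a call. Of 260 values of 14 results given without a test, 10 changed sign and 4 moved by more than the spread between libraries. For ENSRNOG00000006873, cortex MK-8722 1 mpk minus enalapril was 0.55 (limma adjusted p 0.0632) after rescaling. In medulla, enalapril minus lean was -0.54 (adjusted p 0.014) with the 2 groups alone, and MK-8722 1 mpk minus enalapril was -1.06 to -0.73 on leaving out 1 library. For ENSRNOG00000011269 in cortex, MK-8722 1 mpk minus enalapril was 0.47 (adjusted p 0.0839) after rescaling, 0.56 (adjusted p 0.0749) with the 2 groups alone and 0.45 to 0.68 on leaving out 1 library. Its cortex minus medulla difference under enalapril was 1.40 (adjusted p 0.0151) with a pseudocount of 0.1, 0.50 (adjusted p 0.0466) after rescaling and 0.41 to 0.52 on leaving out 1 library. At MK-8722 1 mpk it was 0.50 (adjusted p 0.0939) when log2 depth entered the model. In medulla, obese vehicle minus lean was -0.00639 FPKM after rescaling and -0.00401 to 0.0317 on leaving out 1 library. Among values without a test, obese vehicle minus lean in cortex was -1.73 after rescaling for ENSRNOG00000006873 and 0.69 with a pseudocount of 0.1 for ENSRNOG00000011269. With that pseudocount ENSRNOG00000011269 at MK-8722 1 mpk minus obese vehicle was 0.76, and cortex minus medulla in obese vehicle was 1.25. The cause of these changes was not tested. The replicate block changed no call. For the tissue differences of ENSRNOG00000006873 it lowered the limma adjusted p from 0.391 to 0.057 at MK-8722 1 mpk and from 0.424 to 0.121 in lean. The block turned the obese vehicle tissue difference of this ID from 0.01 to -0.41. There, 2 of 3 libraries correlated best with their own number and no pairing rule was met. The described 10 mpk minus obese vehicle differences ranged from 2.59 to 2.91 for ENSRNOG00000006873 in cortex, 1.57 to 2.18 in medulla, and 2.70 to 3.79 for ENSRNOG00000011269 in cortex. In medulla ENSRNOG00000011269 at 10 mpk differed from obese vehicle by 0.66 (adjusted p 0.0519) in a limma fit with no filter and by 0.67 (adjusted p 0.114) with the replicate block as well. Pseudocount and 2-group alternatives were not run for the permutation tests. Estimated reads of this ID outside cortex 10 mpk were 0 to 14 per library.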

Other observations

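Deviations of ENSRNOG00000006873 from its group means were set side by side in the 18 pairs of cortex and medulla libraries that share a treatment and a replicate number, although the labels do not say that a shared number is a shared animal. Pearson's r was 0.664 and Spearman's rho 0.494, given as descriptions without a test. Some of the pairs hold libraries used in the choice. The spread also differed between groups, with an SD of log2(FPKM + 0.5) of 0.131 in cortex lean and 0.933 in medulla obese vehicle. Without the 2 pairs farthest from the median in cortex, r was 0.442 and rho 0.309. Leaving out the farthest pairs narrows the range of the cortex values, so the lower r does not show where the relation came from. At MK-8722 1 mpk replicate 2 was the highest library in cortex, at 109 FPKM, and in medulla, at 114 FPKM. At MK-8722 10 mpk replicate 6 was the lowest in both tissues, at 231 and 123 FPKM. These were the 2 pairs left out above. Other pairs deviated in opposite directions, such as enalapril replicate 7, at 0.215 in cortex and -0.198 in medulla in log2(FPKM + 0.5).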
